A study of Pongo abelii with 8 samples.

Results

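DNA repair genes keep the genome intact, and 44 of them were followed here from orangutan skin fibroblasts into the induced pluripotent stem cells (iPSCs) made from them. The 44 genes were listed by name, and a gene was measured where the array annotation gave its symbol alone to at least 1 probe set, a group of short probes that read the same transcript. On this basis 42 of the 44 genes were measured, out of 11963 genes on the array, and BRCA2 and FANCA were not analysed here. A gene with several probe sets is given by the probe set with the highest mean over all arrays.

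The cells came from 2 Sumatran orangutans, KB10973, a 29 year old male, and KB10460, a 43 year old female. Each animal gave 3 iPSC colonies and 1 fibroblast culture, so 6 iPSC arrays stood against 2 fibroblast arrays. The iPSCs carried retroviruses for human OCT4, SOX2, KLF4 and c-MYC, were picked as colonies and expanded on inactivated mouse fibroblasts, and grew in a serum replacement medium, while the sample labels place the fibroblasts in medium with fetal bovine serum and the series text places both in the serum replacement medium. Both animals are labelled as healthy controls. Colonies of a donor share 1 animal and 1 starting culture. The test of iPSCs against fibroblasts had no donor term, so its error pools the spread among colonies with differences between the 2 animals. It treats the arrays as independent, and with 2 animals its p-values do not speak for animals in general. The tests between donors rest on the spread among colonies of a donor and not between animals.

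Cells repair DNA by several routes that divide the work by the kind of damage. Homologous recombination copies the intact sister strand across a break, end joining religates broken ends directly, mismatch repair corrects copying errors, base excision repair removes single damaged bases and nucleotide excision repair cuts out bulky lesions such as those made by ultraviolet light. Recombination and mismatch repair work mainly in cells that copy their DNA, and pluripotent stem cells are known for rapid cycling with a short first gap phase.

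Each value is a log2 expression value, so a difference of 1 is a doubling, made by the authors with RMA, which removes background and equalizes the arrays. The medians of the 8 arrays lay between 3.74 and 3.82, and values near this level are close to background, where folds are understated. Two-sided limma tests were fitted over all 22277 probe sets, and a gene was called where its fold change exceeded 1.5 and its p, adjusted by the Benjamini-Hochberg procedure, was under 0.05. Of the markers that check the cell types, 4 of 4 measured pluripotency genes were called higher in the iPSCs and 6 of 7 fibroblast genes lower, the exception being THY1, which was higher and is also known from pluripotent cells. Among 7 markers of other skin cells, 1 was called, the endothelial gene PECAM1, which was at most at 4.24 in the iPSCs, against 6.65 in the KB10973 and 8.10 in the KB10460 fibroblasts. The other endothelial marker VWF was at 3.94 to 5.84 in the iPSCs, against 3.90 in the KB10973 and 3.995 in the KB10460 fibroblasts. The early lineage genes AFP, GATA6 and TBXT were called higher in the iPSCs, with GATA6 between 5.88 and 9.03 across colonies, and their part in the results below was not tested. In bulk RNA, a change in the make-up of the cells and a change in the RNA per cell cannot be told apart.

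Of the 42 repair genes, 18 (42.9%) were called higher in the iPSCs than in the fibroblasts, while 15.2% of all 11963 genes were. The 3 members (7.14%) ATM, ERCC1 and ERCC5 were called lower, against 11.5% of all genes, and 21 were not called. The fold change was positive for 33 members, and the members' median log2 fold change was 0.48 beside -0.00 for all genes. For 22 members the lowest iPSC array exceeded the higher fibroblast array, as it did for 23.6% of all genes, and for 3 members the highest iPSC array was under both fibroblast arrays, as for 19.7% of all genes. The ranges overlapped for the remaining 17 members. The highest changes belonged to BLM, MSH6, RAD50 and RAD54L, and the plot of the called genes by array shows them as the widest gaps between circles and squares.

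**Figure D1:**
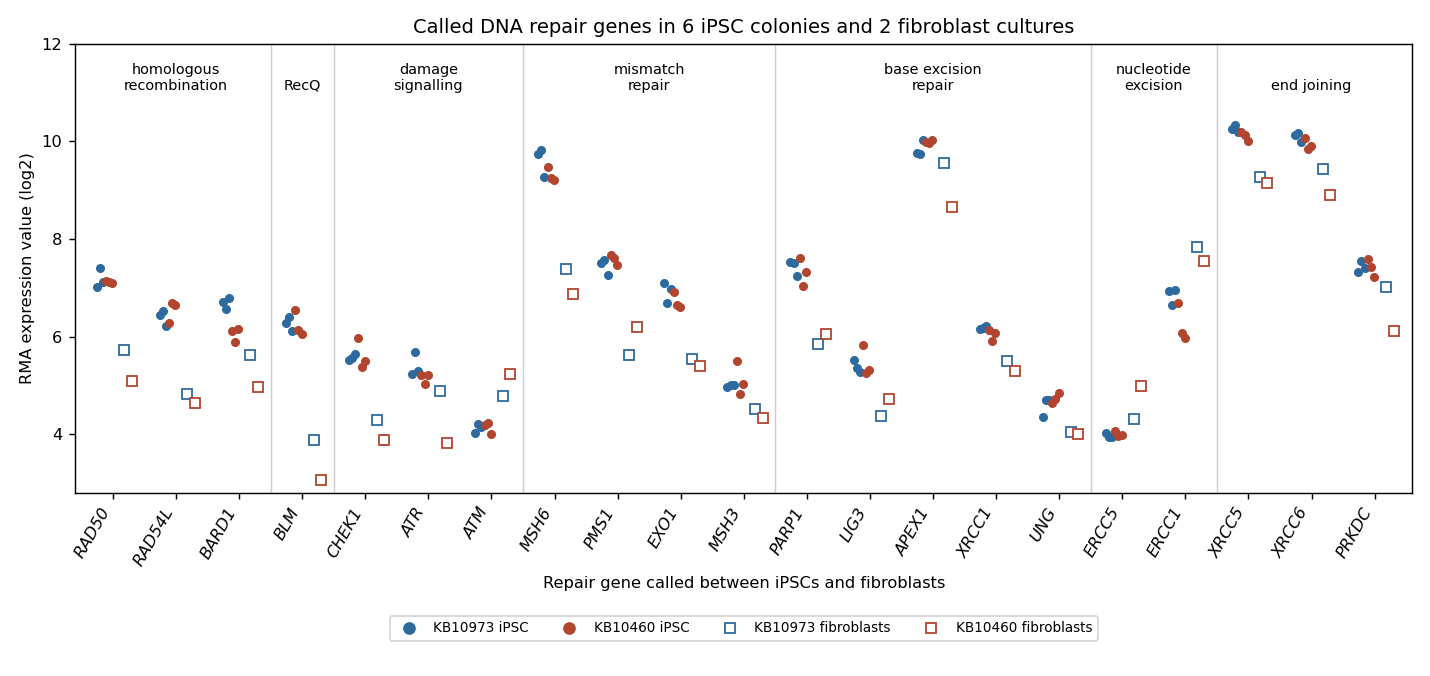
RMA log2 expression values of the 21 called repair genes, grouped by pathway along the horizontal axis. Filled circles are the 6 iPSC colonies and open squares the 2 fibroblast cultures, blue for KB10973 and red for KB10460. In 18 genes every circle lies above both squares, and in ATM, ERCC5 and ERCC1 every circle lies below them.

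The pathways differed in how many members were called. Mismatch repair had 4 of 4 members called higher, base excision repair 5 of 7, end joining 3 of 5, homologous recombination 3 of 8, damage signalling 2 of 4 with 1 lower, and RecQ helicases 1 of 2. Nucleotide excision repair had none of 8 called higher and 2 called lower, and the 4 measured Fanconi anemia genes had no call in either direction. The median log2 fold change was 1.48 for mismatch repair, 0.85 for end joining, 0.71 for base excision repair, 0.52 for homologous recombination and -0.33 for nucleotide excision repair. Both excision routes together had 5 genes called higher and 2 called lower of 15, with a median of 0.24. With 2 to 8 members each, the pathways are compared here by counts and medians alone. Mismatch, base excision and nucleotide excision repair kept this order on every iPSC array, each set against the same 2 fibroblast arrays. The other pathways did not keep their places. End joining was below base excision repair in KB10460 colonies 2 and 3. Homologous recombination was above base excision repair in KB10973 colonies 2 and 3. Relative to the mean of the fibroblast arrays, the mismatch repair median lay between 1.35 and 1.61 in the 6 colonies, the base excision repair median between 0.65 and 0.76, and the nucleotide excision repair median between -0.45 and -0.12.

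**Figure D2:**
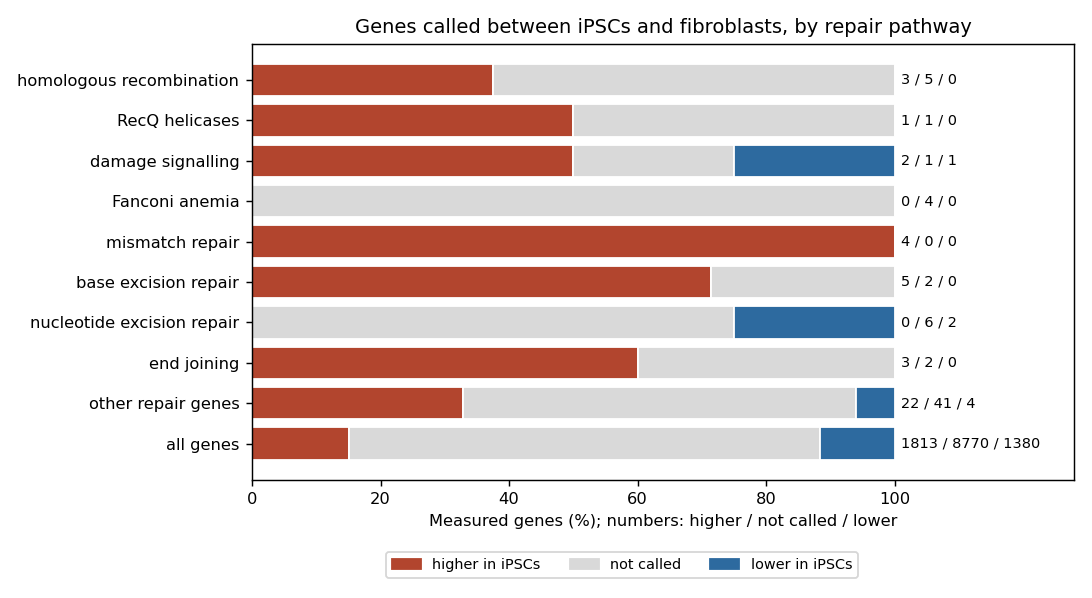
Share of measured genes in each repair pathway called higher, not called or called lower in iPSCs against fibroblasts, in percent, with the counts at the right. Mismatch repair is filled by 4 of 4 genes called higher and nucleotide excision repair has none, beside 1813 higher and 1380 lower of all 11963 genes.

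In mismatch repair all 4 measured members were called higher, with log2 fold changes of 0.64 to 2.34. MSH6, a protein that recognizes base mismatches, was at 9.21 to 9.82 in the iPSCs (median 9.37), against 7.39 in the KB10973 and 6.87 in the KB10460 fibroblasts. It rose 5.05-fold, a log2 fold change of 2.34 ± 0.20 (SE, limma adjusted p = 2.7e-05). The lowest colony stood well clear of the higher fibroblast culture. A second MSH6 probe set gave a log2 fold change of 3.03 (limma adjusted p = 3.0e-05), whereas the dimmest, with a mean of 2.93, gave 0.05. PMS1, a MutL homologue, was at 7.27 to 7.67 in the iPSCs (median 7.54) and at 5.63 in the KB10973 and 6.19 in the KB10460 fibroblasts. Its log2 fold change was 1.61 ± 0.15 (SE, limma adjusted p = 5.0e-05), or 3.04-fold. The exonuclease EXO1, which removes the strand that carries the error, was at 6.61 to 7.09 in the iPSCs (median 6.80), against 5.54 in the KB10973 and 5.39 in the KB10460 fibroblasts. EXO1 rose 2.56-fold (log2 fold change 1.36 ± 0.14 SE, limma adjusted p = 8.0e-05). For these genes the colonies of both donors formed a single range above the fibroblasts. MSH3, which recognizes insertion and deletion loops, moved least, at 4.81 to 5.50 in the iPSCs (median 5.01), against 4.50 in the KB10973 and 4.33 in the KB10460 fibroblasts. Its log2 fold change of 0.64 ± 0.16 (SE, limma adjusted p = 0.014) lost the call without the KB10460 fibroblasts (0.55, adjusted p = 0.11) and dropped under 1.5-fold without KB10460 colony 1 (0.55), the colony with the highest MSH3 value.

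In homologous recombination the log2 fold changes ranged from 0.01 for NBN to 1.74 for RAD50, with BRCA1 at 0.51 and MRE11 at 0.52 between them. RAD50, the structural subunit of the MRE11-RAD50-NBN complex that holds broken ends, was at 7.02 to 7.40 in the iPSCs (median 7.13), against 5.72 in the KB10973 and 5.10 in the KB10460 fibroblasts. This was a 3.34-fold rise (log2 fold change 1.74 ± 0.16 SE, limma adjusted p = 3.8e-05). A second RAD50 probe set, with a mean of 3.36 over the arrays, gave 0.01. The partners of RAD50 in this complex were not called. The nuclease MRE11 was at 5.81 to 6.55 in the iPSCs (median 6.03), against 5.31 in the KB10973 and 5.91 in the KB10460 fibroblasts, with a log2 fold change of 0.52 ± 0.22 (SE, limma adjusted p = 0.11). NBN, the subunit that recruits ATM to breaks, was at 6.13 to 6.38 in the iPSCs (median 6.24), against 6.43 in the KB10973 and 6.05 in the KB10460 fibroblasts, a difference of 0.01 with a 95% interval of -0.24 to 0.26. The colonies overlapped the fibroblasts for MRE11 and NBN, so RAD50 was the only gene of this complex with separate ranges.

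RAD54L, a motor protein of strand exchange, was at 6.21 to 6.68 in the iPSCs (median 6.48), against 4.82 in the KB10973 and 4.64 in the KB10460 fibroblasts. It rose 3.32-fold (log2 fold change 1.73 ± 0.14 SE, limma adjusted p = 1.7e-05), and no colony came near the fibroblast values. BARD1, the obligate partner of BRCA1, was at 5.89 to 6.78 in the iPSCs (median 6.36), against 5.62 in the KB10973 and 4.97 in the KB10460 fibroblasts. Its log2 fold change was 1.07 ± 0.26 (SE, limma adjusted p = 0.014), or 2.10-fold. BARD1 lost the call without the KB10460 fibroblasts (0.74, adjusted p = 0.16). The KB10973 colonies were the higher ones for BARD1, at 6.57 to 6.78, against 5.89 to 6.15 in KB10460 colonies, and the KB10973 fibroblasts were also higher.

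BRCA1 itself, the scaffold of recombination, passed the limma p-value threshold but not the fold threshold. It was at 3.87 to 4.39 in the iPSCs (median 4.33), against 3.76 in the KB10973 and 3.73 in the KB10460 fibroblasts, a log2 fold change of 0.51 ± 0.13 (SE, limma adjusted p = 0.018). All colonies were above the fibroblasts, and the second BRCA1 probe set gave 0.52 (limma adjusted p = 4.7e-04), with every value of both probe sets close to the array medians. Without KB10460 colony 1, the lowest colony for the first probe set, BRCA1 met the call rule (0.59, limma adjusted p = 6.2e-04). RAD51C, a gene of recombination also linked to Fanconi anemia, spread over 5.70 to 6.87 in the iPSCs (median 6.27), against 6.50 in the KB10973 and 5.39 in the KB10460 fibroblasts. The fibroblast cultures alone differed by more than a unit for this gene, and the log2 fold change of 0.39 ± 0.36 (SE) was not called (limma adjusted p = 0.49). RAD51AP1, an accessory factor of recombination, stayed at 3.08 to 3.41 on all 8 arrays and was not called.

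**Figure D3:**
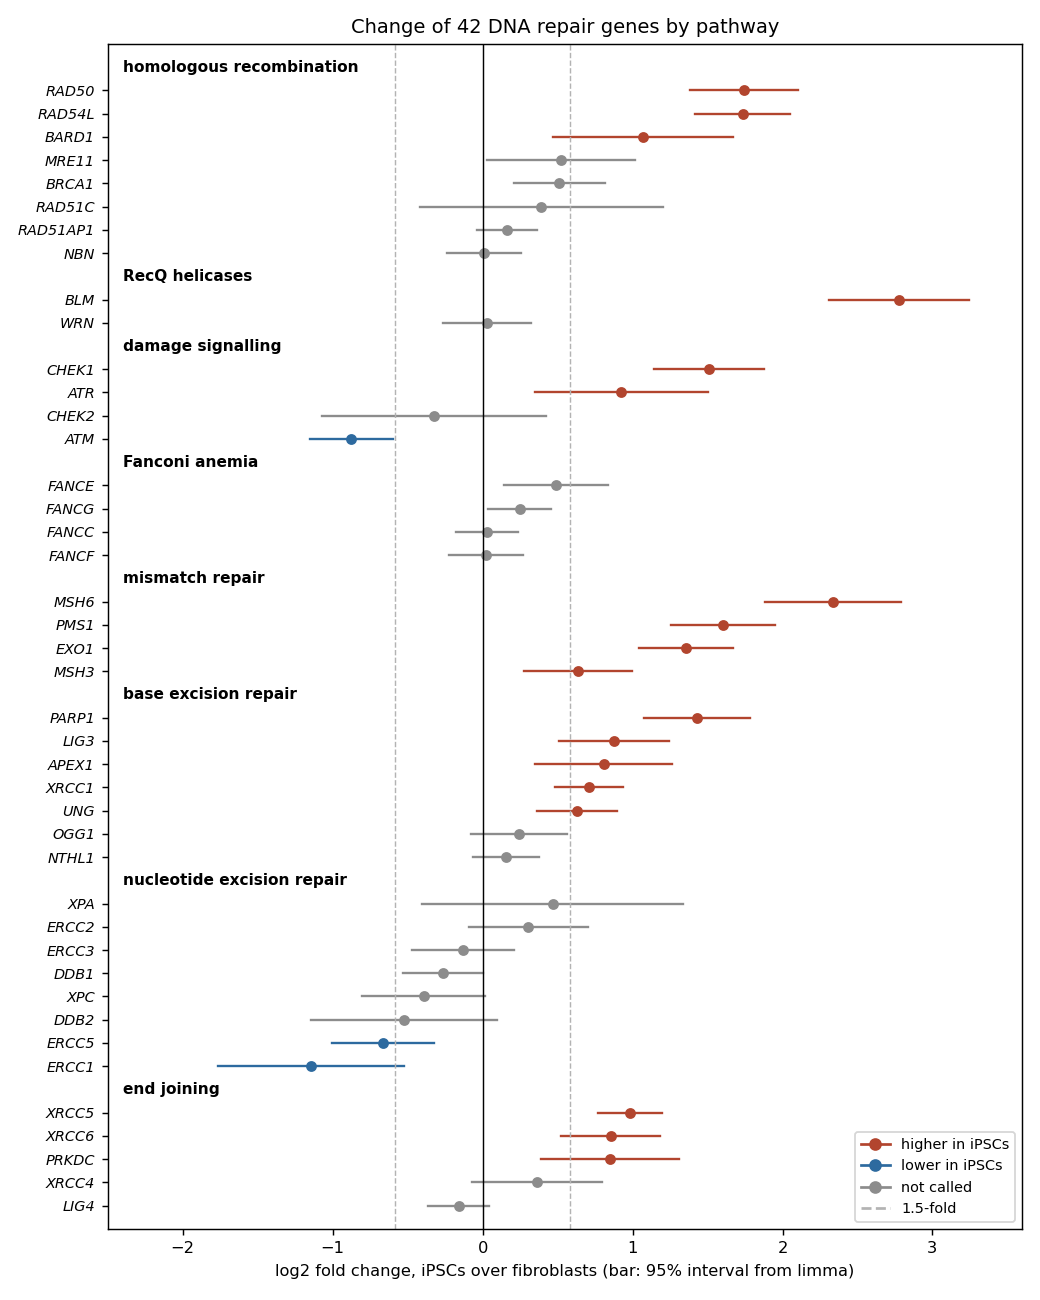
log2 fold change of each of the 42 measured repair genes, iPSCs over fibroblasts, by pathway, with bars for the 95% interval from limma and dashed lines at 1.5-fold. BLM at 2.78 and MSH6 at 2.34 lie farthest to the right, and ERCC1 at -1.14, ATM at -0.88 and ERCC5 at -0.67 are the 3 genes called lower.

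BLM, the RecQ helicase that dissolves recombination intermediates and is lost in Bloom syndrome, had the largest change of the 42 genes. It was at 6.06 to 6.54 in the iPSCs (median 6.20), against 3.89 in the KB10973 and 3.06 in the KB10460 fibroblasts. The rise was 6.86-fold (log2 fold change 2.78 ± 0.21 SE, limma adjusted p = 1.1e-05). Both fibroblast values were near or below the array medians, so the fold may be understated. The related helicase WRN, lost in Werner syndrome, was at 3.31 to 3.81 in the iPSCs (median 3.58) and at 3.59 in the KB10973 and 3.50 in the KB10460 fibroblasts. WRN was close to background in both cell types, and its difference of 0.03 had a 95% interval of -0.26 to 0.32.

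Of the 4 kinases that signal DNA damage, CHEK1 and ATR were called higher, ATM was called lower and CHEK2 was not called. CHEK1, the effector kinase of the replication checkpoint, was at 5.37 to 5.98 in the iPSCs (median 5.54), against 4.29 in the KB10973 and 3.88 in the KB10460 fibroblasts. It rose 2.84-fold (log2 fold change 1.51 ± 0.16 SE, limma adjusted p = 1.0e-04), and its dimmer probe set also rose (0.63, limma adjusted p = 0.0026). ATR, the kinase that activates CHEK1, was at 5.02 to 5.68 in the iPSCs (median 5.22), against 4.89 in the KB10973 and 3.81 in the KB10460 fibroblasts. Its log2 fold change was 0.93 ± 0.26 (SE, limma adjusted p = 0.023), or 1.90-fold. The KB10973 fibroblasts lay just under the lowest colony, and without the KB10460 fibroblasts the ATR call was lost (0.39, adjusted p = 0.25). The second ATR probe set gave 0.31 (limma adjusted p = 0.18).

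ATM, the kinase activated by double-strand breaks and mutated in ataxia telangiectasia, was lower in the iPSCs, at 4.01 to 4.23 (median 4.16), against 4.78 in the KB10973 and 5.24 in the KB10460 fibroblasts. The log2 fold change was -0.88 ± 0.12 (SE, limma adjusted p = 5.4e-04), a 1.83-fold fall. All colonies lay below both fibroblast cultures and within a narrow range. The other ATM probe sets gave -0.26 and -0.32 (limma adjusted p = 0.097 and 0.038), the same direction with changes under 1.5-fold at means of 3.77 and 3.44, and with the mean of the probe sets per gene ATM was at -0.48 and no longer called. CHEK2, the effector kinase downstream of ATM, was at 5.38 to 6.53 in the iPSCs (median 5.92), against 6.81 in the KB10973 and 5.67 in the KB10460 fibroblasts. Its fibroblast values were more than a unit apart, with the colonies spread around and below them, and the log2 fold change of -0.32 ± 0.33 (SE) was not called (limma adjusted p = 0.54).

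The Fanconi anemia genes, which unhook crosslinked strands, were low throughout. FANCC, FANCF and FANCG had means under 4 in both cell types, with log2 fold changes of 0.03, 0.02 and 0.25. FANCE, a member of the core complex, was at 4.55 to 5.17 in the iPSCs (median 4.78), against 4.18 in the KB10973 and 4.46 in the KB10460 fibroblasts. Every colony was above both cultures, but the change of 0.49 ± 0.15 (SE, limma adjusted p = 0.040) was under 1.5-fold and FANCE was not called.

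Among the listed base excision repair members, calls fell on the 4 genes that act after a damaged base is removed. They also fell on 1 of the 3 listed glycosylases. Outside the list, the glycosylases TDG, MUTYH and MBD4 were called higher, MPG was called lower and SMUG1 was not called. Among genes of the later steps outside the list, FEN1, LIG1 and PARP2 were called higher, and POLB, APEX2 and APTX were not called. The division by step therefore holds for the listed members only. PARP1, which detects single-strand breaks and marks them with ADP-ribose chains, was at 7.03 to 7.62 in the iPSCs (median 7.42), against 5.84 in the KB10973 and 6.05 in the KB10460 fibroblasts. It rose 2.69-fold (log2 fold change 1.43 ± 0.16 SE, limma adjusted p = 1.1e-04). LIG3, the ligase that seals the nick, was at 5.25 to 5.82 in the iPSCs (median 5.33), against 4.37 in the KB10973 and 4.72 in the KB10460 fibroblasts. LIG3 rose 1.83-fold (log2 fold change 0.87 ± 0.16 SE, limma adjusted p = 0.0029), and its other probe set, with a mean of 3.56, gave 0.12. Its scaffold partner XRCC1 was at 5.92 to 6.23 in the iPSCs (median 6.15), against 5.51 in the KB10973 and 5.30 in the KB10460 fibroblasts, with a log2 fold change of 0.71 ± 0.10 (SE, limma adjusted p = 5.5e-04). No colony reached the fibroblast values of PARP1, LIG3 or XRCC1.

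APEX1, the endonuclease that opens the strand at a missing base, was at 9.75 to 10.03 in the iPSCs (median 9.98), against 9.56 in the KB10973 and 8.66 in the KB10460 fibroblasts. Its log2 fold change was 0.81 ± 0.20 (SE, limma adjusted p = 0.014), or 1.75-fold. The colonies were nearly level and the fibroblast cultures were not, and without the KB10460 fibroblasts the APEX1 change was 0.36 (adjusted p = 0.11). UNG, the glycosylase that removes uracil from DNA, was at 4.35 to 4.84 in the iPSCs (median 4.70), against 4.04 in the KB10973 and 4.01 in the KB10460 fibroblasts. UNG rose by 0.63 ± 0.12 (SE, limma adjusted p = 0.0030) on the log2 scale. The listed glycosylases for oxidized bases, OGG1 and NTHL1, were not called. OGG1, which removes oxidized guanine, was at 4.91 to 5.25 in the iPSCs (median 5.10), against 5.08 in the KB10973 and 4.57 in the KB10460 fibroblasts, and NTHL1, which removes oxidized pyrimidines, differed by 0.15 with a 95% interval of -0.07 to 0.37.

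Among the listed members, nucleotide excision repair was the only pathway with calls in the lower direction alone. Of its 8 members, 2 (25%) were called lower, beside 11.5% of all genes, and none higher, beside 15.2% of all genes. With 8 members these counts are not read as a trait of the pathway. ERCC1, which with ERCC4 forms the nuclease that cuts on the 5′ side of a lesion, was at 5.98 to 6.96 in the iPSCs (median 6.66), against 7.84 in the KB10973 and 7.54 in the KB10460 fibroblasts. Its log2 fold change was -1.14 ± 0.27 (SE, limma adjusted p = 0.011), a 2.21-fold fall. All colonies were below both cultures, with KB10460 colonies 2 and 3 lowest at 6.07 and 5.98. The second ERCC1 probe set put the same colonies lowest, at 6.12 and 6.03, and was also called lower (-0.86, limma adjusted p = 0.024). Without the KB10973 fibroblasts the ERCC1 change was -0.996 and no longer called (adjusted p = 0.084). ERCC5, the nuclease that cuts on the 3′ side, was at 3.93 to 4.06 in the iPSCs (median 3.97), against 4.30 in the KB10973 and 4.99 in the KB10460 fibroblasts. It fell 1.59-fold (log2 fold change -0.67 ± 0.15 SE, limma adjusted p = 0.0087), and without the KB10460 fibroblasts the change was -0.32, under 1.5-fold. The colonies for ERCC5 were near background, where the scale compresses changes.

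The damage sensors of this route had negative changes that were not called. XPC, which finds distorted DNA, was at 6.47 to 7.12 in the iPSCs (median 6.78), against 7.47 in the KB10973 and 6.91 in the KB10460 fibroblasts, with a log2 fold change of -0.39 ± 0.18 (SE, limma adjusted p = 0.15). DDB2, the lesion-binding subunit and a known p53 target, was at 4.47 to 5.55 in the iPSCs (median 4.78), against 5.72 in the KB10973 and 5.04 in the KB10460 fibroblasts, with a change of -0.52 ± 0.27 (SE, limma adjusted p = 0.21). Its partner DDB1 differed by -0.26 with a 95% interval of -0.53 to 0.01. In all of these the iPSC range reached into the fibroblast range. XPC met the call rule without the KB10460 fibroblasts (-0.67, adjusted p = 0.044), and DDB2 without KB10973 colony 2 (-0.66, adjusted p = 0.037). The helicases of the TFIIH complex, ERCC2 and ERCC3, had log2 fold changes of 0.30 and -0.13 and were not called. XPA, which positions the nucleases at the lesion, varied most among the iPSCs of all 42 members. It was at 4.32, 4.12 and 4.48 in KB10973 colonies and at 4.35, 5.63 and 5.33 in KB10460 colonies 1, 2 and 3, against 4.33 in the KB10973 and 4.14 in the KB10460 fibroblasts. KB10460 colonies 2 and 3, which were also the lowest for ERCC1, had the highest XPA values, and the other colonies lay near the fibroblasts.

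End joining rose in the genes of its break-binding kinase complex. XRCC5 and XRCC6 encode the Ku80 and Ku70 subunits of the ring that slides onto a broken end, and PRKDC encodes the kinase that Ku recruits. XRCC5 was at 10.01 to 10.33 in the iPSCs (median 10.19), against 9.26 in the KB10973 and 9.14 in the KB10460 fibroblasts. The log2 fold change was 0.98 ± 0.09 (SE, limma adjusted p = 5.4e-05), or 1.97-fold, and a second XRCC5 probe set gave 1.15 (limma adjusted p = 0.0022). XRCC6 was at 9.84 to 10.18 in the iPSCs (median 10.04), against 9.43 in the KB10973 and 8.90 in the KB10460 fibroblasts, a change of 0.85 ± 0.14 (SE, limma adjusted p = 0.0017), or 1.81-fold. Both Ku genes were thus higher in every colony than in either fibroblast culture, but XRCC6 lost its call with the colonies averaged within each donor (limma adjusted p = 0.073) and was under 1.5-fold with the mean of probe sets (0.47). PRKDC was at 7.22 to 7.60 in the iPSCs (median 7.42), against 7.02 in the KB10973 and 6.12 in the KB10460 fibroblasts. Its log2 fold change was 0.85 ± 0.20 (SE, limma adjusted p = 0.011), but 0.50 with the mean of probe sets, under 1.5-fold. The KB10973 fibroblasts lay just below the colonies for PRKDC, and without the KB10460 fibroblasts it lost the call (0.40, adjusted p = 0.090). Neither gene of the ligation step was called. LIG4, the ligase of this pathway, was at 3.34 to 3.64 in the iPSCs (median 3.51), against 3.61 in the KB10973 and 3.73 in the KB10460 fibroblasts, near background, and its cofactor XRCC4 had a change of 0.36 ± 0.19 (SE, limma adjusted p = 0.21).

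The annotation gave 67 probe sets to the 42 members, and 17 members had several. In 8 of these (ATM, ATR, LIG3, MSH3, MSH6, PRKDC, RAD50 and XRCC6) the probe sets differed in call, and in 4 (MRE11, OGG1, RAD51C and XRCC4) in sign, while no member was called higher at 1 probe set and lower at another. Of the 25 probe sets not used above, 16 had a mean under 4, and 1 of those 16 was called. Among the 9 with a mean of 4 or more, 3 were called higher and 1 lower. Probes were made for human transcripts, and mismatches with orangutan transcripts, which can lower a signal, were not examined for these genes. The uncalled probe sets of RAD50, LIG3 and XRCC6 all had means under 4, while those of ATM and ATR gave smaller changes in the same direction as the ones used. With the mean of probe sets per gene, 5 members lost the call. These were ATM (-0.48), LIG3 (0.50), MSH3 (0.39), PRKDC (0.50) and XRCC6 (0.47), all under 1.5-fold.

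**Figure D4:**
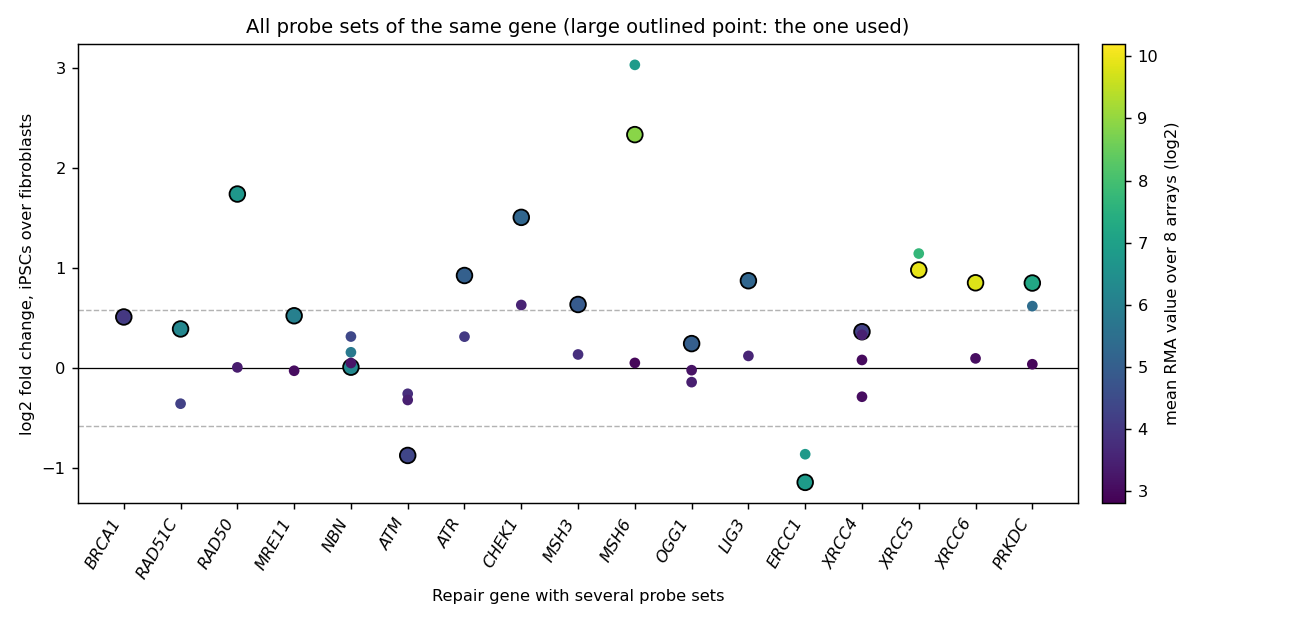
log2 fold change, iPSCs over fibroblasts, of every probe set of the 17 repair genes with several, with the probe set used outlined and the colour giving the mean RMA log2 value over 8 arrays. Dashed lines mark 1.5-fold, the 2 points of BRCA1 coincide near 0.5, and the dark points, which have low means, lie closer to 0 than the outlined points of RAD50, MSH6, LIG3, XRCC6 and PRKDC.

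Each donor's colonies could also be set against that donor's own fibroblasts. The members' median change was 0.35 in KB10973 and 0.60 in KB10460, and 34 of 42 members had the same sign in both donors, as did 8754 of all 11963 genes. The KB10973 fibroblasts were the higher culture for 30 of 42 members, with a median difference of 0.18 over the KB10460 fibroblasts. Over all genes they were higher for 5907 of 11963, with a median difference of -0.0037. In 23 of 26 proliferation genes the KB10973 fibroblasts were also the higher culture, with a median difference of 0.90. Of these 26 genes, 22 were called higher in the iPSCs and none lower. Their median change was 1.55 in KB10973 and 2.74 in KB10460, and the part of proliferation in the repair gene changes was not tested.

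**Figure D5:**
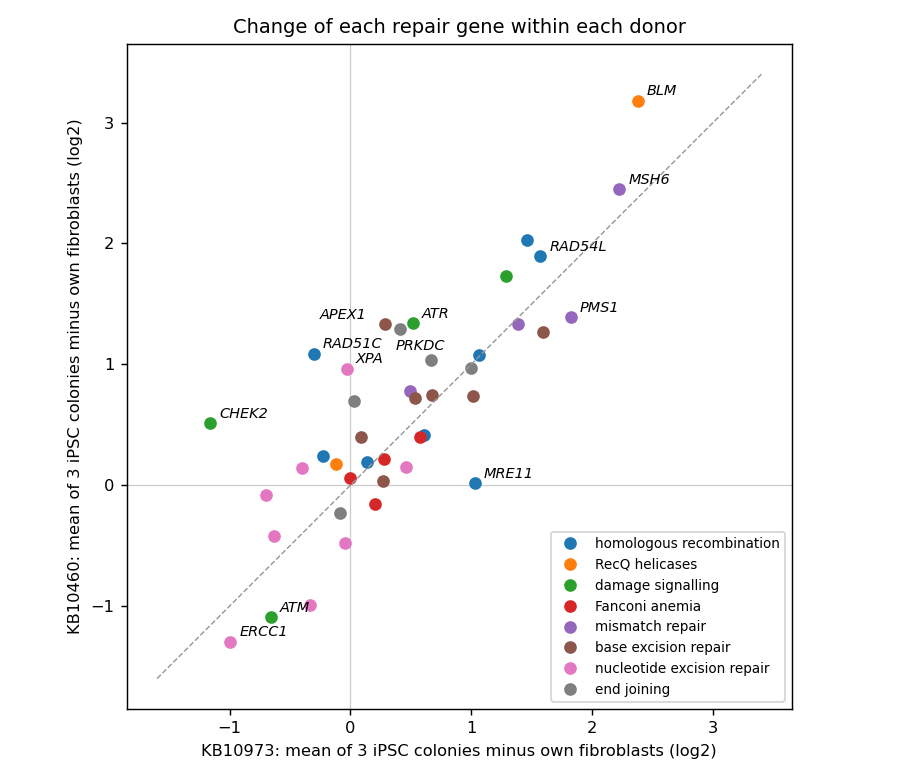
Change of each of the 42 repair genes as the mean of a donor's 3 iPSC colonies minus that donor's own fibroblasts on the log2 scale, KB10973 on the horizontal axis and KB10460 on the vertical axis, coloured by pathway. On the dashed line both donors change equally, and APEX1, ATR and PRKDC lie above it while CHEK2 has opposite signs, at -1.16 in KB10973 and 0.51 in KB10460.

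A test of the difference between the donors' changes called 1 member, APEX1, while 3.42% of all genes were called. APEX1 changed by 0.29 in KB10973 and by 1.33 in KB10460, a difference of -1.05 ± 0.19 (SE, limma adjusted p = 0.034). The APEX1 values of all colonies lay between 9.75 and 10.03, and the donors differed more in the fibroblasts, at 9.56 in KB10973 and 8.66 in KB10460. The call was lost when any 1 of 4 iPSC arrays was left out, KB10973 colonies 1 and 2 and KB10460 colonies 2 and 3, with adjusted p-values of 0.063 to 0.086. CHEK2 had a larger difference, -1.67 ± 0.36 (SE), with an adjusted p of 0.059 in limma, and 12 of 42 members had an unadjusted p under 0.05, as did 2073 of all 11963 genes. Since the fit holds a single fibroblast array per donor, its error rests on the spread among colonies.

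Among the iPSCs alone, KB10973 colonies against KB10460 colonies, limma called 0 of 42 members and 0.142% of all genes, and 7 members had an unadjusted p under 0.05, as did 1409 of all 11963 genes. BARD1 had a difference of 0.64 (limma adjusted p = 0.086) and XPA one of -0.80 (limma adjusted p = 0.42). Without KB10460 colony 1, which resembled the KB10973 colonies in ERCC1 and XPA, 2 members were called, ERCC1 at 0.82 (limma adjusted p = 0.040) and XPA at -1.17 (limma adjusted p = 0.022). Over all genes the calls also grew, to 98 without that colony beside 17 with it. The SD over the 6 iPSC arrays had a median of 0.18 over the members and 0.14 over all genes. It was 0.05 for ERCC5 and 0.62 for XPA, the ends of the range.

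A second list held 86 other genes of DNA repair, of which 67 were measured. Of these, 22 (32.8%) were called higher and 4 (5.97%) lower in the iPSCs, with a median log2 fold change of 0.18. FANCL, the ubiquitin ligase of the Fanconi core complex, had the largest change, at 5.93 to 6.88 in the iPSCs (median 6.59), against 4.70 in the KB10973 and 3.36 in the KB10460 fibroblasts (2.49 ± 0.33 SE, limma adjusted p = 4.1e-04). The glycosylase TDG, which also acts in DNA demethylation, rose by 1.94 ± 0.26 (SE, limma adjusted p = 4.4e-04). The flap endonuclease FEN1 and the TFIIH subunit GTF2H4 each rose by 1.80 on the log2 scale (limma adjusted p = 8.5e-04 for FEN1 and 3.0e-05 for GTF2H4). Outside the 44, genes of the Fanconi pathway (FANCL and FANCI) and of nucleotide excision repair (GTF2H4, RAD23B, CDK7 and MNAT1) were called higher, so the absence of higher calls in these pathways holds for the listed members only. The 4 that fell were the ubiquitin-conjugating enzymes of damage bypass UBE2B (-1.63, limma adjusted p = 2.9e-04) and UBE2A (-1.27, limma adjusted p = 4.5e-05), the glycosylase for alkylated bases MPG (-1.03, limma adjusted p = 0.0015) and REV3L, the catalytic subunit of a translesion polymerase (-0.98, limma adjusted p = 0.0021).

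Over the 22 alternatives to these settings, 8 of the 18 members called higher held their call in every alternative that could be run for them. They were BLM, MSH6, RAD50, RAD54L, PMS1, CHEK1, PARP1 and EXO1. None of the 3 members called lower did so. Leaving out the KB10460 fibroblasts, which left 1 fibroblast array, removed the calls of APEX1, ATR, BARD1, MSH3, PRKDC and ERCC5. Their log2 fold changes were then 0.36 for APEX1, 0.39 for ATR, 0.74 for BARD1, 0.55 for MSH3, 0.40 for PRKDC and -0.32 for ERCC5. Averaging the colonies within each donor left 13 of 42 members called higher, without APEX1, ATR, BARD1, PRKDC and XRCC6. Over all 11963 genes the higher calls also fell with averaged colonies, from 1813 to 1258.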

How the data were processed

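Total RNA of 6 orangutan iPSC colonies and 2 skin fibroblast cultures was labelled with biotin and hybridized to one-colour Affymetrix human arrays. The authors normalized the arrays with RMA in WebArray, with no version given in these sources, and deposited log2 values for 22277 probe sets. The annotation gave 1 symbol to 19070 of them, several to 1043 and none to 2164. RMA equalizes the arrays, so a shift of most transcripts in 1 cell type would not be seen. No column of the table was without a sample (0 left over). Precision is limited by the few arrays.

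The deposited log2 values were fitted with limma 3.58.1 (R 4.3.3, default lmFit and eBayes). All 8 arrays entered the comparison of iPSCs with fibroblasts, the 6 iPSC arrays that of KB10973 with KB10460, and 4 groups (donor by cell type) the contrast of the donors' changes. Benjamini-Hochberg adjustment over all probe sets stood in for the SPLOSH false discovery rate of the study's methods. Scripts were tested on simulated data, and figures were drawn with matplotlib 3.10.9 in Python 3.11.15.

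The members, the other gene lists and the rules were chosen with earlier results of these data known. The rule for named genes took every member, with full statistics for up to 3 called members per pathway with the largest change and for every member called lower. It also took the other repair genes with the largest changes, 4 each way, members whose probe sets disagree, and members called between donors.

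Arrays are paired by donor, since a donor's iPSCs and fibroblasts share 1 animal. Across probe sets, the donor difference in iPSCs and that in fibroblasts were correlated at 0.02. Colony numbers share only a number. Alternatives changed the adjustment, the moderation and weighting of arrays, the donor block, the averaging of colonies, the normalization, a filter that kept probe sets over 5 in at least 2 arrays, the fold threshold and the probe set per gene, and left out each array. Promoter motifs were not analysed here.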

Additional observations from a re-analysis of the deposited data

Results flagged for a closer look

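Among the 42 members, the 6 iPSC arrays were searched for a single array that stood apart from the rest, which chance gives in about 1 in 20 genes, and 3 members had one. BRCA1 was low in KB10460 colony 1, at 3.87, while the next colony was at 4.24 and the highest at 4.39. The second BRCA1 probe set was at 4.20 in that colony and at 4.07 to 4.22 over all 6. MSH3 was high in the same colony, at 5.50, with the next at 5.04 and the lowest at 4.81. RAD50 was high in KB10973 colony 2, at 7.40, with the next at 7.14 and the lowest at 7.02, all far above the fibroblasts. APEX1 was the only member whose change differed between the donors by a test of that difference, -1.05 on the log2 scale (limma adjusted p = 0.034), with a change of 0.29 in KB10973 and 1.33 in KB10460. The fit holds 1 fibroblast array per donor, at 9.56 in KB10973 and 8.66 in KB10460, and the call was lost without any 1 of 4 iPSC arrays and with Benjamini-Yekutieli adjustment (adjusted p = 0.36).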

How the results depend on the processing

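Over 868 values of single members, 810 kept their direction and side of the threshold, 40 lost and 5 gained a call, and 13 changed sign, none of them called. With the donor as a replicate block, 18 members were called higher and 3 lower, as without it, and no call changed. With the colony number as a block, 0 members were called between donors.

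Of the 18 higher calls, 9 remained at a 2-fold threshold, and leaving out 1 array gave 13 to 18. Of the 3 lower calls, 1 remained with Benjamini-Yekutieli adjustment and with averaged colonies (ATM), at 2-fold (ERCC1), and with the filter on low values (ERCC1, as the filter left ATM and ERCC5 untested), and leaving out 1 array gave 2 to 4. The count of other repair genes called, 26, was 17 with averaged colonies and 17 at 2-fold. Over all 11963 genes, 1258 were called higher and 975 lower with averaged colonies, and 1161 higher and 887 lower at 2-fold. The main setting had 1813 higher and 1380 lower. The difference between donors had 1 member called, 0 with Benjamini-Yekutieli or with KB10973 colonies 1 and 2 averaged, and 2 with trended robust moderation, array weights, quantile normalization or the filter. Leaving out 1 array gave 0 to 3, the 3 (APEX1, CHEK2, XPA) without KB10460 colony 1. Between the iPSCs of the donors it gave 0 to 2, the 2 also without that colony.

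The members' median of 0.48 was 0.83 with the filter, which kept 28 members, 0.35 with the mean of probe sets, and 0.36 to 0.54 without 1 array. The median over all genes also moved with the filter, from -0.0039 to 0.20 over the 5059 genes kept. With the filter the medians were 0.80 for homologous recombination, 2.78 for RecQ, 0.93 for damage signalling and 0.81 for base excision repair. A gene could pass this filter through its iPSC arrays alone, as BLM did with fibroblasts at 3.89 in KB10973 and 3.06 in KB10460. WRN did not pass, so the RecQ value is that of BLM alone, and damage signalling was left without ATM. These medians are therefore not read as larger changes of the pathways. Base excision repair was at 0.75 with median centring, 0.66 with quantile normalization and 0.63 with the mean of probe sets, which put end joining at 0.47. Damage signalling was at -0.00499 with the probe set of largest interquartile range. Without 1 array the medians were 0.47 to 0.74 for homologous recombination, 1.17 to 1.63 for RecQ, -0.13 to 0.86 for damage signalling, 1.38 to 1.59 for mismatch repair, 0.61 to 0.75 for base excision repair, -0.37 to -0.15 for nucleotide excision repair and 0.40 to 1.04 for end joining. The causes were not tested.

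Signs changed for NBN (-0.13 with quantile normalization) and, without 1 array, for NBN (-0.18 to 0.20), RAD51C (-0.17 to 0.95), WRN (-0.020 to 0.081), FANCC (-0.057 to 0.12), OGG1 (-0.0084 to 0.50), CHEK2 (-0.90 to 0.25), FANCF (-0.12 to 0.16) and ERCC3 (-0.43 to 0.17). The difference between donors could not be fitted without a fibroblast array or with averaged colonies.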

Other observations

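Colonies of KB10460 differed among themselves in more than repair genes. GATA6, an early endoderm gene, was at 8.86 and 9.03 in KB10460 colonies 2 and 3, the pair with the lowest ERCC1 and the highest XPA values, and at 5.88 in colony 1. The KB10973 colonies had GATA6 at 7.33, 6.05 and 8.28 with XPA at 4.32, 4.12 and 4.48. Their ERCC1 values were 6.94, 6.64 and 6.96, highest in the KB10973 colony with the highest GATA6. TBXT, an early mesoderm gene, was at 6.33 and 6.45 in KB10460 colonies 2 and 3 and at 4.74 in colony 1, against 6.02 to 7.34 in the KB10973 colonies.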
